A study of Mus musculus with 8 samples.

Results

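Endothelial identity and junction genes were examined as a set of 47 genes that mark blood or lymphatic endothelial cells or join these cells to each other, leaving out the genes of the VEGF, Tie and Notch pathways. The members were taken by gene symbol from a table of 46040 genes, and all 47 were found. RNA of the left ventricle (LV) of 8 mice was sequenced on day 14 of angiotensin II (angII) infusion at 0.1 mg/kg/h, a treatment that loads the heart with pressure and that both groups received. The mice were male C57BL/6 animals, 5 to 7 months old, and were either VEGFR-1 TK-/- mice or their littermate controls, 4 of each by the labels. In VEGFR-1 TK-/- mice, Flt1, which encodes the VEGF receptor VEGFR-1, lacks the part for the intracellular tyrosine kinase. The labels disagree on the genotype: for every library, the genotype tag and the library name give one genotype and the sample title gives the other. Libraries were grouped by the tag and are called control-tagged and TK-tagged. If the titles are right, every sign below reverses. The library names also speak of cardiomyocytes where the source is given as LV, and the labels describe ribosomal RNA depletion where the study's methods describe poly-A selection. Only mice alive on day 14 could be sampled.

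Endothelial cells line blood and lymphatic vessels and the inner surface of the heart. VE-cadherin (Cdh5) and claudin 5 (Cldn5) close the gaps between neighbouring cells, selectins and ICAM proteins slow and hold leukocytes, and transcription factors of the ETS, SOXF and KLF families keep the cells endothelial and quiescent. Prox1 and Lyve1 set lymphatic endothelium apart from blood endothelium. In the heart, capillaries run beside almost every cardiomyocyte, so the RNA of a whole ventricle holds a share from endothelium beside that of cardiomyocytes, fibroblasts, mural cells and leukocytes.

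The libraries held between 11449137 and 16239670 counts on genes. Levels are given as normalized CPM, counts scaled to a common library size with trimmed-mean (TMM) factors. Of the 47 members, 46 had a CPM of 1 or more in 2 or more libraries and were tested among 13542 genes. Occludin (Ocln), a tight junction protein of epithelia and some endothelia, was left out with 6 to 19 reads per library, and only TK-tagged replicate 2 passed a CPM of 1. The counts of replicates of a group differed by more than sampling noise, with 6.77 to 49.9 as their chi-square divided by its degrees of freedom, which noise alone would bring to 1. The labels do not say that the libraries come from separate litters or days.

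Flt1, the targeted gene, had 67.4, 68.4, 56.9 and 84.3 normalized CPM in the control-tagged libraries and 143.5, 149.1, 169.6 and 168.1 in the TK-tagged libraries. The groups did not overlap. The fold change, given on the log2 scale and for TK-tagged against control-tagged libraries as throughout, was 1.19 ± 0.12 (SE), and its adjusted p was 0.00808 in the quasi-likelihood test of edgeR. Counts per gene do not show which exons were read, so this level does not show the loss of the kinase domain and does not decide between the labels.

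The markers that define blood endothelium were well covered. Per kb of exon, the control-tagged libraries held 128.2 ± 17.9 (SD, n = 4) normalized CPM of Cav1, the main protein of caveolae, and 103.4 ± 13.6 of Cdh5. Gpihbp1, which carries lipoprotein lipase across capillary endothelium, followed with 84.4 ± 9.96 per kb, then Sox18, Egfl7, Esam and Pecam1 with 65.9 ± 11.9, 61.8 ± 4.28, 56.9 ± 6.51 and 54.2 ± 5.35. Neighbours in this order lie within their spread of each other from Sox18 to Pecam1. The lymphatic markers Lyve1, Pdpn and Prox1 lay much lower than these on the same scale, at 5.75 ± 1.56, 4.73 ± 2.14 and 3.83 ± 0.0684 per kb. This range was not particular to lymphatic markers, as Plvap and Vwf had 5.63 ± 0.758 and 5.05 ± 1.45 per kb. Stab1, also in the lymphatic list, had 15.55 ± 3.44 per kb. At the bottom stood endothelial protein C receptor (Procr) at 0.924 ± 0.126, E-selectin (Sele) at 0.484 ± 0.108 and P-selectin (Selp) at 0.207 ± 0.0829 per kb, the selectins with only 6 to 25 and 3 to 17 reads per library. None of the markers that define adipocytes passed the filter, and the atrial markers Sln and Bmp10 had at most 3 reads in any library. The atrial markers Myl7 and Myl4 passed the filter at low levels. Myl7 had means of 0.733 and 0.749 normalized CPM in the control-tagged and TK-tagged libraries, and Myl4 3.75 and 4.17.

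None of the 46 tested members was called by the quasi-likelihood test at an adjusted p under 0.1 with the fold threshold used here, nor by DESeq2, beside 1 gene of all 13542 (0.00738%), by the quasi-likelihood test, which is Flt1. The lowest adjusted p among the members was 0.442. With the likelihood ratio test of edgeR, the test the study used, 53 genes were called here (0.391%) and Vwf was the member among them. The study itself reported fewer regulated genes, so these 53 are not its result. Although single genes missed the threshold, the members lay mostly on one side. The mean level was lower in the TK-tagged group for 43 of the 46 members, beside 50.3% of all genes tested, and higher for 3 (Icam1, Vcam1 and Prox1). The median log2 fold change of the members was -0.27, which is a level 17.2% lower (a fold of 0.828), and that of all genes was -0.00. The unadjusted p was under 0.05 for 15 members with lower means (32.6% of them, beside 5.64% of all genes) and for 0 members with higher means (beside 3.32%). These counts moved with single libraries. Without control-tagged replicate 2 there were 7 such members, without control-tagged replicate 4 there were 9 and without TK-tagged replicate 2 also 9, while the share of all genes was then 4.54%, 5.13% and 3.43%.

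**Figure D1:**
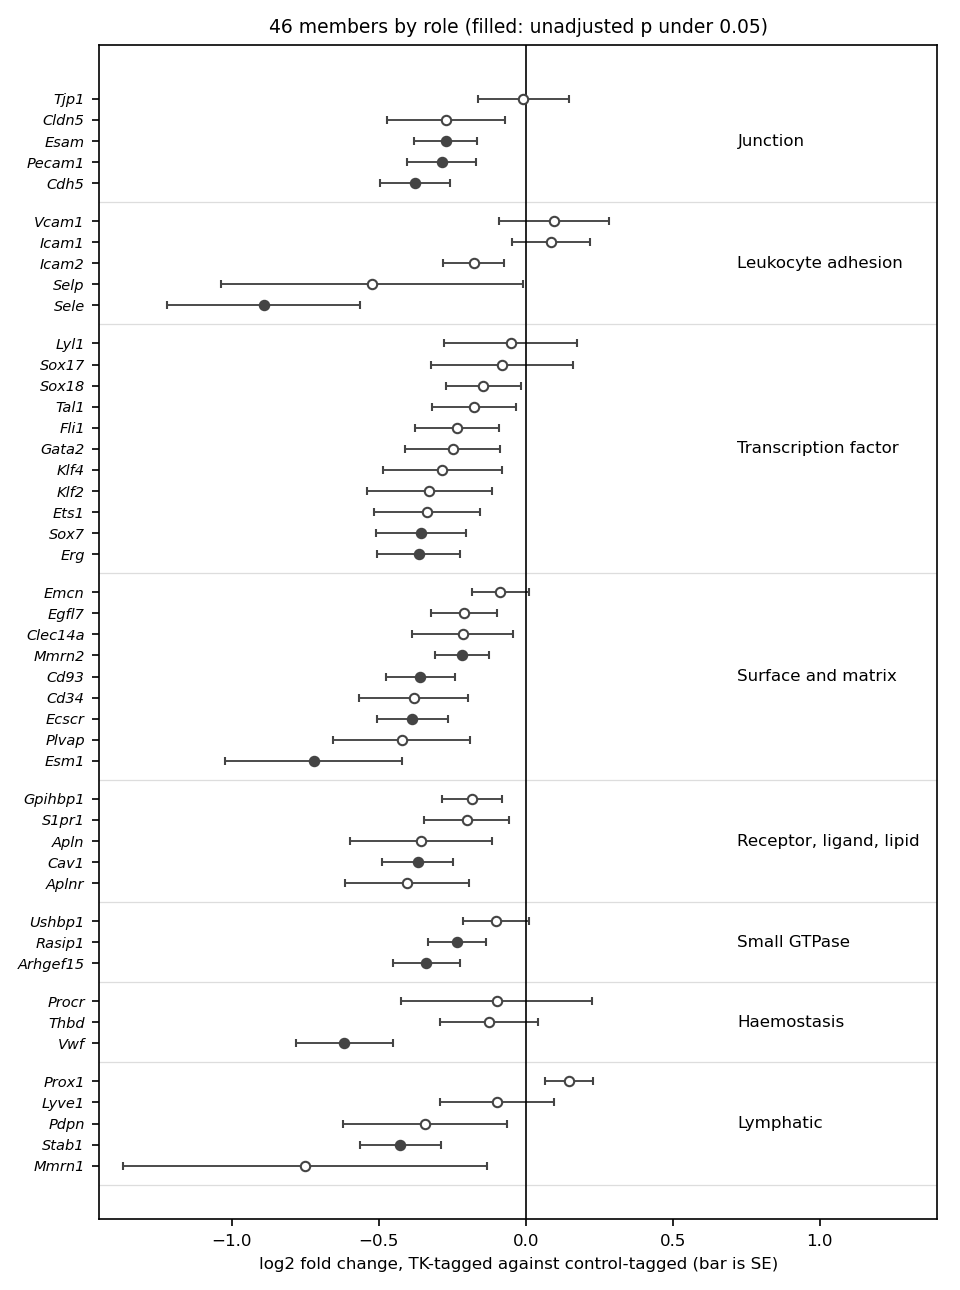
Log2 fold change of each of the 46 tested members, TK-tagged against control-tagged, grouped by role. Points are the fitted values, bars their SE, and filled points have an unadjusted p under 0.05. The points lie between -0.89 (Sele) and 0.15 (Prox1), with 43 to the left of 0, and no filled point lies to the right.

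In 5 members every TK-tagged library lay below every control-tagged library (10.9% of the members, beside 2.53% of all genes), and these were Vwf, Sele, Cd93, Rasip1 and Stab1. Prox1 was the 1 member with every TK-tagged library above every control-tagged library (beside 2.46% of all genes). For such genes the exact permutation test gives p = 0.0286, and no smaller value can come from 4 libraries in each group. The count of 5 became 15 without control-tagged replicate 1 and 13 without TK-tagged replicate 1. Leaving a library out by itself makes overlap less likely, and the share of all genes is not given for these settings. The count was 2 when libraries were scaled by their totals in place of the TMM factors, and the share of all genes is not given there either.

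Upstream sequences of the members without overlap are printed so that the letters of ETS sites can be seen in them, since Erg, Fli1 and Ets1 are ETS factors and members themselves. RefSeq promoters (GRCm38.p6) were matched for 26 of the 47 members, and of the 6 members without overlap for Prox1, Rasip1, Sele and Stab1, not for Vwf and Cd93. Each run holds the 250 bases before the RefSeq start site, 5′ to 3′ on the strand of the gene. The windows are chr1:190170828-190171077 on the minus strand for Prox1, chr7:45627287-45627536 on the plus strand for Rasip1, chr1:164047984-164048233 on the plus strand for Sele and chr14:31168642-31168891 on the minus strand for Stab1. Capitals mark the letters AGGAAG or CGGAAG, on either strand.
Prox1: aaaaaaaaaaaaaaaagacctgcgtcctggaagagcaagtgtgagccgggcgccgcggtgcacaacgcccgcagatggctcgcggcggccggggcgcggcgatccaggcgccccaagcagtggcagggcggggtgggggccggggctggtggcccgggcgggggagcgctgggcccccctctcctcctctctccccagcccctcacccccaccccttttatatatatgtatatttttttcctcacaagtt
Rasip1: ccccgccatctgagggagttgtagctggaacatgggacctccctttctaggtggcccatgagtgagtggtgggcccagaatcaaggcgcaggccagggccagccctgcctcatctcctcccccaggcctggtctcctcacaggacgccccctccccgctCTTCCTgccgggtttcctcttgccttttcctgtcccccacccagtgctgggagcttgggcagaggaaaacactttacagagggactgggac
Sele: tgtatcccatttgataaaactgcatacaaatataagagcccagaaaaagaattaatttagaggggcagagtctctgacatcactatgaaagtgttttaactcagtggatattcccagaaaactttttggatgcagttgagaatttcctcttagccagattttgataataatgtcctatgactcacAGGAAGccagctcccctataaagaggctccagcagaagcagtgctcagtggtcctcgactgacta
Stab1: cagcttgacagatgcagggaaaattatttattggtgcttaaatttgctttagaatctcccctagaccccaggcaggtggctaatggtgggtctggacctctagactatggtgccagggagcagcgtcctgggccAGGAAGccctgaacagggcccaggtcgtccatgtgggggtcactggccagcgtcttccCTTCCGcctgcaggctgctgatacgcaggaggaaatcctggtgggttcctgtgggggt

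Stab1 held these letters at 2 places, which began 116 and 58 bases before the start site, Rasip1 at 1 place 91 bases before it and Sele at 1 place 65 bases before it, whereas Prox1 held none. Over windows of 300 bases (250 before and 50 after the start site), 13 of the 26 matched members held the letters, beside 46.5% of all 32851 promoters, so the share among the members was near that of all. For the KLF-type letters CCACCC the shares were 42.3% of the members and 31.5% of all promoters, for the GATA letters AGATAA 3.85% and 11.2%, for the SOX letters ACAATG 3.85% and 12.6%, and for TATAAA 15.4% and 13.6%. A match of letters is not a bound site, and binding was not measured.

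Among the junction genes, all 5 tested members had lower means in the TK-tagged group, with a median log2 fold change of -0.27, and 3 of them (Cdh5, Pecam1 and Esam) had an unadjusted p under 0.05. Cdh5 (VE-cadherin, chr8:104101625-104144511), the adhesion protein of endothelial adherens junctions, had 355, 457, 489 and 438 normalized CPM in the control-tagged libraries and 328, 316, 318 and 378 in the TK-tagged libraries. The overlap between the groups came from control-tagged replicate 1 and TK-tagged replicate 4. The means were 434.6 ± 57.3 and 334.8 ± 29.1 (SD, n = 4), and Cdh5 had a log2 fold change of -0.38 ± 0.12 (SE) at an adjusted p of 0.464.

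Pecam1 (chr11:106654217-106750628), the homophilic adhesion molecule CD31, had 291, 358, 365 and 338 normalized CPM in the control-tagged libraries and 294, 228, 287 and 299 in the TK-tagged libraries. TK-tagged replicate 2 stood below the other 7 libraries, and control-tagged replicate 1 lay among the TK-tagged values. The log2 fold change was -0.29 ± 0.12 with an adjusted p of 0.521. Esam, an adhesion molecule of tight junctions, had 145, 179, 149 and 180 against 133, 122, 151 and 135 normalized CPM, with a log2 fold change of -0.27 ± 0.11 and an adjusted p of 0.508. Cldn5, the main claudin of endothelial tight junctions, varied more within its groups, with 78.3, 68.2, 71.6 and 48.7 against 61.0, 74.5, 49.0 and 36.9 normalized CPM, and its difference of -0.27 ± 0.20 was within that spread. The scaffold protein Tjp1 (ZO-1), which is also found at the intercalated discs of cardiomyocytes, had means of 58.1 ± 13.9 and 57.7 ± 4.95 normalized CPM, a difference far within the spread, with a log2 fold change of -0.01 ± 0.16.

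**Figure D2:**
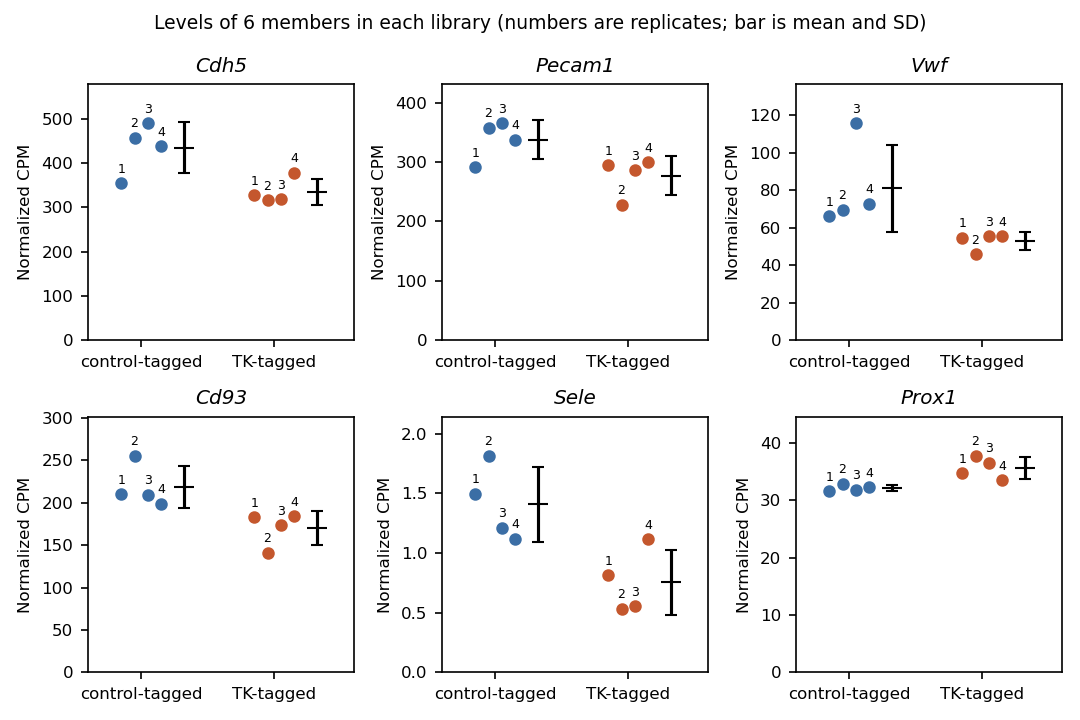
Normalized CPM of 6 members in each of the 8 libraries, each panel on its own linear axis from 0. Points are libraries with their replicate number, and the black bar is the mean and SD of the 4. In Vwf, Cd93 and Sele the TK-tagged points lie below all control-tagged points, in Prox1 above them, and in Cdh5 and Pecam1 the groups overlap.

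Of 17 other junction genes tested, from a list of 18, 11 had lower and 6 higher means in the TK-tagged group, with a median log2 fold change of -0.15. An unadjusted p under 0.05 was found for 3 of them, all lower, and for 0 higher. Cgnl1 (paracingulin), which links tight and adherens junctions to the cytoskeleton, had the lowest p of these, with a log2 fold change of -0.38 ± 0.12 and an adjusted p of 0.453. The catenins that bind cadherins inside the cell, Ctnna1, Ctnnb1, Ctnnd1 and Jup, are made in cardiomyocytes too and had log2 fold changes of 0.07, -0.15, 0.10 and -0.14.

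Of the 5 genes for leukocyte adhesion, 3 had lower and 2 higher means in the TK-tagged group. Sele (chr1:164048234-164057677), which endothelial cells make when activated by cytokines and which catches leukocytes from the flow, had 1.497, 1.82, 1.21 and 1.12 normalized CPM in the control-tagged libraries and 0.813, 0.533, 0.553 and 1.12 in the TK-tagged libraries. These values rest on 14 to 25 and 6 to 14 reads per library, and TK-tagged replicate 4 lay at the lowest control-tagged value (1.116 against 1.119). The log2 fold change was -0.89 ± 0.33, the lowest of all members, with an adjusted p of 0.493. Its neighbour Selp, 57.6 kb away, is stored in endothelial granules and in platelets, and had means of 0.913 ± 0.366 and 0.630 ± 0.516 normalized CPM. Icam2, which endothelium makes without activation, had a log2 fold change of -0.18 ± 0.10.

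The inducible ligands of leukocyte integrins had higher means in the TK-tagged group, within the spread. Vcam1 (chr3:116109949-116129688) had 14.7, 16.6, 8.95 and 12.2 normalized CPM in the control-tagged libraries and 16.5, 11.98, 12.1 and 15.4 in the TK-tagged libraries. The ranges overlapped almost fully, the log2 fold change was 0.10 ± 0.19 with an adjusted p of 0.907, and with single libraries left out it ran from -0.05 (without control-tagged replicate 3) to 0.23 (without control-tagged replicate 2). Icam1 had 24.8 ± 2.88 and 26.3 ± 4.55 normalized CPM, with a log2 fold change of 0.09 ± 0.13.

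All 11 transcription factors had lower means in the TK-tagged group, with log2 fold changes from -0.36 to -0.05 and a median of -0.25. Erg (chr16:95359169-95586593), an ETS factor that maintains endothelial identity and drives Cdh5, had 31.7, 46.9, 42.2 and 45.3 normalized CPM in the control-tagged libraries and 37.5, 28.7, 27.6 and 35.2 in the TK-tagged libraries. Control-tagged replicate 1 lay among the TK-tagged values and the other 3 above them. Erg had a log2 fold change of -0.36 ± 0.14, with an unadjusted p of 0.025 and an adjusted p of 0.506. Sox7, of the SOXF family, was the other factor with an unadjusted p under 0.05, at -0.36 ± 0.15, whereas Sox18 (-0.14 ± 0.13) and Sox17 (-0.08 ± 0.24) of the same family lay nearer to 0.

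The ETS factors Ets1 and Fli1 had log2 fold changes of -0.34 ± 0.18 and -0.23 ± 0.14. Klf2 and Klf4, which shear stress induces in endothelium, had -0.33 ± 0.21 and -0.28 ± 0.20, and both had their highest level in control-tagged replicate 4. In Klf2 this library held 139.9 normalized CPM, where the other control-tagged libraries held 85.0 to 87.0. Gata2, Tal1 and Lyl1, which endothelium shares with blood cells, had -0.25 ± 0.16, -0.18 ± 0.14 and -0.05 ± 0.23. Sox13, an endothelial SOX factor outside the members, had the log2 fold change -0.38 ± 0.12 with an adjusted p of 0.464 and groups that did not overlap.

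The 9 surface and matrix genes all had lower means in the TK-tagged group, with a median log2 fold change of -0.36, and 4 had an unadjusted p under 0.05. Ecscr, a surface protein of endothelial migration and survival, had 31.0, 41.2, 38.5 and 33.7 normalized CPM in the control-tagged libraries and 32.4, 25.6, 25.0 and 27.6 in the TK-tagged libraries. The overlap came from TK-tagged replicate 1 and control-tagged replicate 1, and the log2 fold change was -0.39 ± 0.12 with an adjusted p of 0.464. Cd93 (chr2:148436640-148443563), a C-type lectin-like receptor of endothelium and myeloid cells, had 209.7, 255.2, 209.4 and 198.8 against 182.7, 140.9, 173.3 and 184.0 normalized CPM. All TK-tagged values were below all control-tagged values, with a log2 fold change of -0.36 ± 0.12 and an adjusted p of 0.464. Mmrn2, a matrix protein that binds CD93, had 72.9 ± 6.35 and 62.7 ± 4.17 normalized CPM and a log2 fold change of -0.22 ± 0.09, and Clec14a, another of its receptors, -0.21 ± 0.17.

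Esm1 (endocan, chr13:113209659-113218098), a secreted proteoglycan typical of the tip cells of growing vessels, had 2.25, 4.43, 2.83 and 1.84 normalized CPM in the control-tagged libraries and 2.19, 1.51, 1.42 and 1.75 in the TK-tagged libraries. Control-tagged replicate 2 had the highest value, and only control-tagged replicate 4 lay among the TK-tagged values. With 17 to 61 reads per library, the log2 fold change was -0.72 ± 0.30 and the adjusted p 0.522. It was -0.43 without control-tagged replicate 2. Plvap, which forms the diaphragms of caveolae and fenestrae, had -0.42 ± 0.23, and the sialomucins Cd34 and Emcn had -0.38 ± 0.19 and -0.09 ± 0.10. Egfl7, a matrix protein of endothelium whose gene hosts miR-126, had -0.21 ± 0.11, and 64 of its exon bases are shared with Agpat2 on the other strand (7180 reads in all libraries).

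The receptors, ligands and lipid-handling proteins gave 5 lower means of 5, with a median of -0.36. Cav1 (chr6:17306335-17341452) had 363, 501, 423 and 479 normalized CPM in the control-tagged libraries and 351, 314, 327 and 377 in the TK-tagged libraries. Control-tagged replicate 1 lay below TK-tagged replicate 4 and the other control-tagged libraries above it, as in Cdh5. This gave a log2 fold change of -0.37 ± 0.12 with an adjusted p of 0.464. The apelin receptor Aplnr and its ligand Apln had -0.40 ± 0.21 and -0.36 ± 0.24, and Apln was highest in control-tagged replicate 2 (39.6 normalized CPM, where the other 7 libraries held 17.0 to 26.0). S1pr1, the receptor for sphingosine 1-phosphate that tightens the endothelial barrier, had -0.20 ± 0.14 and Gpihbp1 -0.18 ± 0.10.

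Of the 3 genes for small GTPase regulation, Arhgef15 (chr11:68943155-68957480), an endothelial guanine nucleotide exchange factor, had 116.0, 137.0, 153.9 and 143.5 normalized CPM in the control-tagged libraries and 128.3, 100.4, 102.1 and 104.5 in the TK-tagged libraries. TK-tagged replicate 1 stood above the others of its group, and the log2 fold change was -0.34 ± 0.11 with an adjusted p of 0.468. Rasip1, a Ras-interacting protein needed for vessel lumens, had the narrowest control-tagged spread of the 3, with 109.5, 111.6, 104.7 and 104.8 against 94.99, 77.7, 104.0 and 89.7 normalized CPM. The groups did not overlap, TK-tagged replicate 3 came close to the control-tagged range, and the log2 fold change was -0.23 ± 0.10. Its exons share 654 bases (20.4%) with Izumo1 on the same strand, which had 40 reads in all libraries against 10352 for Rasip1. Ushbp1 had -0.10 ± 0.11.

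The 3 haemostasis genes had lower means in the TK-tagged group. Vwf (chr6:125546774-125686679), the von Willebrand factor that endothelium and megakaryocytes store and that tethers platelets, had 66.2, 69.8, 115.7 and 72.9 normalized CPM in the control-tagged libraries and 54.8, 45.9, 55.5 and 55.5 in the TK-tagged libraries. All control-tagged values were above all TK-tagged values, with replicate 3 far above the other 3. The means were 81.1 ± 23.2 and 52.9 ± 4.68 (SD, n = 4), and the log2 fold change was -0.62 ± 0.17 with the lowest unadjusted p of the members, 0.00301, and an adjusted p of 0.442. In the likelihood ratio test the adjusted p was 0.0921, and over all alternatives it ran from 0.0921 to 0.941. It was -0.40 when control-tagged replicate 3 was left out. The platelet markers beside it were low: 4 of 7 were tested, their summed level was 19.9 to 27.9 normalized CPM in the control-tagged and 17.1 to 24.2 in the TK-tagged libraries, and Gp1ba and Gp9 had at most 5 and 9 reads in any library. The anticoagulant receptors thrombomodulin (Thbd) and Procr had -0.13 ± 0.17 and -0.10 ± 0.32.

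Of the 5 lymphatic genes, 4 had lower means in the TK-tagged group and Prox1 a higher one. Prox1 (chr1:190118035-190170714), the transcription factor that makes endothelium lymphatic and that cardiomyocytes make too, had 31.6, 32.9, 31.8 and 32.3 normalized CPM in the control-tagged libraries and 34.7, 37.7, 36.5 and 33.5 in the TK-tagged libraries. The control-tagged values lay close together and all TK-tagged values above them, with means of 32.2 ± 0.574 and 35.6 ± 1.89. The log2 fold change was 0.15 ± 0.08, with an adjusted p of 0.626. Cardiomyocyte markers lay on the same side: 8 of 10 had higher means in the TK-tagged group, with a median log2 fold change of 0.16. Their part in the level of Prox1 was not tested.

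Lyve1, the hyaluronan receptor of lymphatic endothelium and of some resident macrophages, had 14.2, 22.4, 12.2 and 18.3 against 14.9, 15.4, 12.7 and 19.7 normalized CPM, and the groups overlapped fully (-0.10 ± 0.19). Stab1 (chr14:31139013-31168641), a scavenger receptor of lymphatic and sinusoidal endothelium and of macrophages, had 150.6, 153.4, 209.8 and 126.3 against 115.8, 112.2, 123.4 and 124.7 normalized CPM. All TK-tagged values were below the control-tagged values, narrowly so for control-tagged replicate 4, with a log2 fold change of -0.43 ± 0.14 and an adjusted p of 0.464. Control-tagged replicate 3 had the highest value, and without it the log2 fold change was -0.27. Of 12 leukocyte markers, 10 had lower means in the TK-tagged group, with a median log2 fold change of -0.31. Their summed levels were 547 to 703 against 389 to 568 normalized CPM, and in 0 of them were the groups free of overlap. Among them the macrophage receptor Csf1r had -0.49 ± 0.16, with an adjusted p of 0.464, whereas Ptprc and C1qa had -0.13 ± 0.19 and -0.04 ± 0.20. The part of leukocytes in the level of Stab1 was not tested. Pdpn, which fibroblasts and mesothelium make as well, had -0.34 ± 0.28. Of 8 other lymphatic genes, 5 had lower and 3 higher means, with a median of -0.12.

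Mmrn1 (chr6:60924976-60989378), a multimerin of lymphatic endothelium and platelets, had 67, 90, 160 and 147 reads in the control-tagged libraries and 123, 0, 47 and 80 in the TK-tagged libraries. In normalized CPM these are 5.02, 6.53, 10.8 and 11.8 against 9.995, 0, 3.71 and 6.38, where a count of 0 in that library allows up to 0.266. No other gene of the table had 0 reads in 1 library and at least 40 in each of the other 7. The log2 fold change of Mmrn1 was -0.75 ± 0.62 with an adjusted p of 0.747, and it was -0.35 without TK-tagged replicate 2 and -1.32 without TK-tagged replicate 1.

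**Figure D3:**
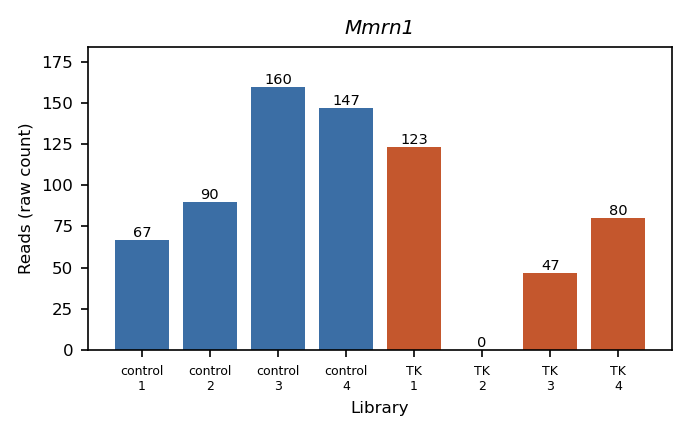
Raw reads of Mmrn1 in each library, with the count above each bar and the axis from 0. TK-tagged replicate 2 has 0 reads, and the other 7 libraries have 47 to 160.

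The libraries differed in the level of the members. The median deviation of the 46 members from their own means, on the log2 scale, was -0.06, 0.30, 0.09 and 0.165 in control-tagged replicates 1 to 4 and 0.03, -0.28, -0.16 and -0.07 in TK-tagged replicates 1 to 4. TK-tagged replicate 2 held the lowest value of 21 members and TK-tagged replicate 3 that of 10, and control-tagged replicate 2 held the highest value of 20 and control-tagged replicate 4 that of 12. Control-tagged replicate 1 and TK-tagged replicate 1 crossed, in that the first lay below the second. The mean deviation of cardiomyocyte markers was -0.36 in control-tagged replicate 2, the lowest of the 8, and that of fibroblast and leukocyte markers was 0.42 and 0.32, the highest. In TK-tagged replicate 2 the mural markers were lowest, at -0.43. In TK-tagged replicate 3 the fibroblast and leukocyte markers were lowest, at -0.80 and -0.33, and the cardiomyocyte markers highest, at 0.23. The part of these shifts in the members' values was not tested.

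**Figure D4:**
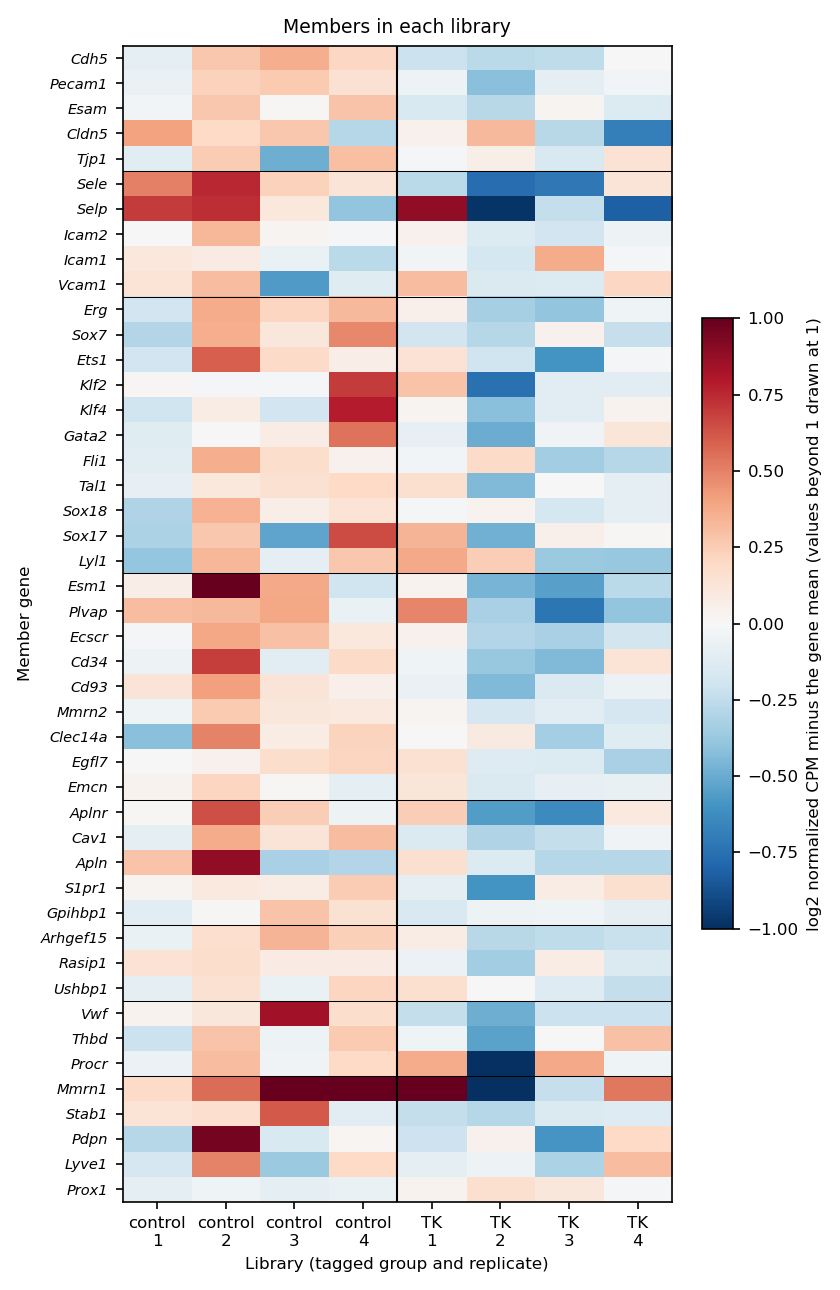
Deviation of each of the 46 members from its mean over the 8 libraries (log2 normalized CPM, colour; red above and blue below the mean), with members in rows by role and libraries in columns. Control-tagged replicates 2 and 4 are mostly red, TK-tagged replicates 2 and 3 mostly blue, and the 0 reads of Mmrn1 in TK-tagged replicate 2 are drawn at the end of the scale.

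Other cells of the vessel wall and the rest of the endothelium were on the same side as the members. Of 30 other endothelial genes, 28 had lower means in the TK-tagged group, with a median log2 fold change of -0.22, 7 with an unadjusted p under 0.05 and lower, and 0 higher. Tmem204, an endothelial surface protein, had -0.37 ± 0.11 with an adjusted p of 0.453. Of 10 mural cell markers, 8 had lower means, with a median of -0.27 and summed levels of 5722 to 6733 against 5103 to 5761 normalized CPM. Des alone had means of 4375 ± 237 and 4035 ± 318 normalized CPM, so these sums are mostly Des. The pericyte genes Kcnj8, Pdgfrb and Cspg4 had -0.65 ± 0.16, -0.54 ± 0.14 and -0.50 ± 0.12. Each had an adjusted p of 0.442 and no overlap between the groups. The smooth muscle genes Myh11, Tagln and Cnn1 lay between -0.02 and 0.04. Not all mural markers split this way, as the smooth muscle gene Acta2 had -0.43 ± 0.36 and the pericyte gene Abcc9 -0.10 ± 0.12. Rgs5 and Des had -0.48 ± 0.17 and -0.12 ± 0.13. All 10 fibroblast markers had lower means (median -0.19, summed 2825 to 3613 against 1776 to 3283), and in 0 of them were the groups free of overlap. Their mean deviations were 0.08, 0.42, 0.06 and 0.08 in control-tagged replicates 1 to 4. In TK-tagged replicates 1 to 4 they were 0.15, -0.26, -0.80 and 0.27, so the lower means rest on TK-tagged replicates 2 and 3. The 10 cardiomyocyte markers had a summed level of 78583 to 119702 in the control-tagged and 100401 to 123753 in the TK-tagged libraries. Of smaller lists, 5 of 6 mesothelium, 3 of 4 endocardium and 5 of 5 tested red blood cell markers had lower means, with medians of -0.08, -0.20 and -0.37. In RNA of whole tissue, fewer endothelial cells, less RNA per endothelial cell and a larger share of RNA from other cells cannot be told apart.

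**Figure D5:**
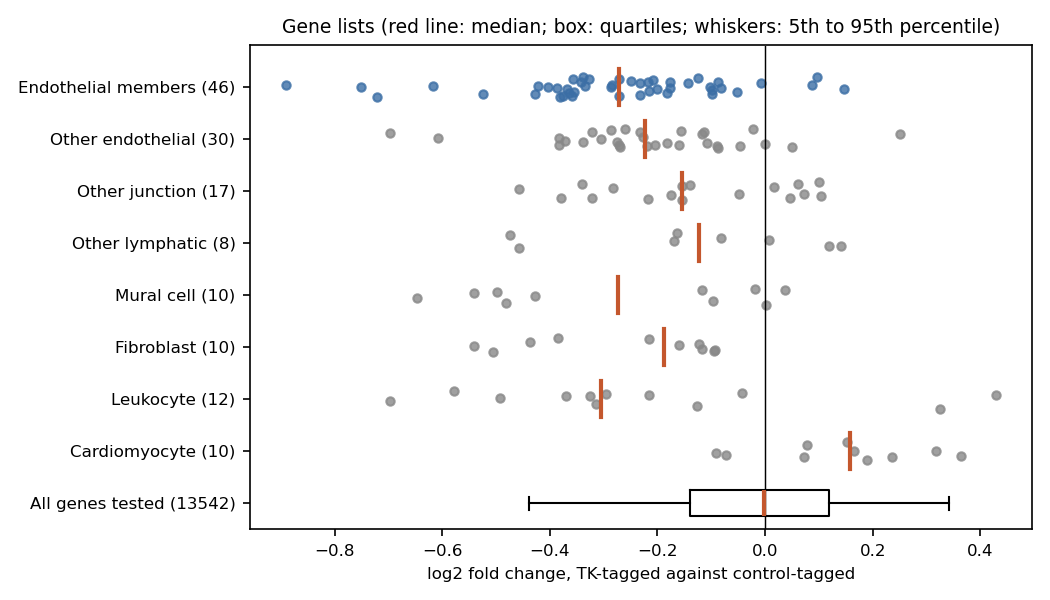
Log2 fold changes of the members, of other gene lists and of all genes tested, TK-tagged against control-tagged. Points are genes, red lines medians, and the box and whiskers give the quartiles and the 5th and 95th percentiles of all 13542 genes. The members have their median at -0.27, the mural markers also at -0.27, the cardiomyocyte markers at 0.16 and all genes at -0.00.

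The members were also set against other endothelial genes. The level of each member was taken relative to the mean log2 level of the 30 other endothelial genes in the same library, a reference that was itself 0.21 lower in the TK-tagged group. On this scale the median difference of the members was -0.05, with 30 below and 16 above 0. The groups were free of overlap in 0 of the 46. The share of all genes on this scale is not given, so this count is not read as a change. Differences beyond 0.3 were found for 5 members with lower relative levels, Mmrn1 (-1.498), Sele (-0.60), Esm1 (-0.41), Vwf (-0.37) and Selp (-0.37), and for 2 with higher ones, Prox1 (0.35) and Vcam1 (0.32), and Flt1 had 1.402. The value of Mmrn1 rests on TK-tagged replicate 2 with 0 reads, where its log2 level deviated by -4.87 from its mean. In TK-tagged replicates 1, 3 and 4 it deviated by 1.16, -0.23 and 0.53. Sele, Selp and Esm1 had only 6 to 25, 3 to 17 and 17 to 61 reads per library. The ratio of Flt1 reads to Cdh5 reads was 0.116 to 0.193 in the control-tagged and 0.438 to 0.533 in the TK-tagged libraries. The ratio to Pecam1 reads was 0.156 to 0.250 and 0.488 to 0.654. Flt1 by itself already separated the groups, and both markers had lower means in the TK-tagged group. These ratios therefore describe the libraries and are no separate test. Flt1 per endothelial marker was thus higher in all 4 TK-tagged libraries than in any control-tagged library.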

How the data were processed

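Reads were trimmed by the authors (Trim Galore 0.4.4, Phred 30), aligned to GRCm38 with STAR 2.5.4b, allowing at most 10 alignments per read, and counted on GENCODE M16 genes with featureCounts. The authors deposited raw counts per gene. The treatment of strand and of reads with several alignments is not given in the sources used here, so reads of overlapping or antisense genes may enter a member. Of the 47 members, 11 share exon bases with another gene in GENCODE M21, the annotation used for coordinates and exon lengths.

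A gene was tested if 2 or more libraries had a CPM of 1 or more. All 8 libraries entered 1 fit of edgeR 4.0.16 in R 4.3.3 (quasi-likelihood F test, TMM factors, no covariates), and adjusted p is the Benjamini-Hochberg value over all genes tested. The SE of a log2 fold change was derived as its absolute value divided by the square root of the F statistic. A call needed an adjusted p under 0.1 and a fold of about 1.5 in either direction, as in the methods of the study. Single genes were also compared with a 2-sided exact permutation test of log2 normalized CPM (prior count 2). Full statistics are given for the 12 members with the lowest p and the 2 highest and 2 lowest log2 fold changes, and values per library also for Cldn5 and Lyve1. As alternatives, the likelihood ratio test, DESeq2 1.42.0, robust dispersions, RLE and upper quartile factors, library totals, no filter, filterByExpr, each library left out and the replicate number as a block were run. The edgeR test was tested on simulated data with changes larger than those of any member, so this does not show how it handles changes as small as theirs. Members, gene lists and named genes were chosen with earlier results of these data known, so counts over them describe these libraries and carry no test.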

Additional observations from a re-analysis of the deposited data

Results flagged for a closer look

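Dixon's test at the 95% level was run on log2 normalized CPM of the 46 tested members in each group (92 tests). In 6 groups a library lay far from the other 3, where chance gives about 4.6. The gaps below are on this log2 scale, and the levels beside them are normalized CPM. In the control-tagged group, Klf2 in replicate 4 was the highest (a gap of 0.954 of the group's range, 139.9 normalized CPM where the others had 85.0 to 87.0), Icam2 in replicate 2 was the highest (0.873, 49.1 and 38.7 to 39.9), and Plvap in replicate 4 was the lowest (0.834, 8.96 and 11.7 to 12.3). In the TK-tagged group, Vwf in replicate 2 was the lowest (0.932, 45.9 and 54.8 to 55.5), Pecam1 in replicate 2 was the lowest (0.842, 228 and 287 to 299), and Arhgef15 in replicate 1 was the highest (0.837, 128 and 100 to 104).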

How the results depend on the processing

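The median log2 fold change of the members lay between -0.34 and -0.21 over 17 alternatives, and the 12 members with the lowest p kept lower means in the TK-tagged group in all 17. Members called numbered 1 (Vwf, adjusted p 0.0921) with the likelihood ratio test and 0 in the other 16, among them DESeq2 (32 genes called) and no filter on low counts (23 genes called). Members with an unadjusted p under 0.05 and lower means numbered 7 to 19 with single libraries left out, beside 3.43% to 6.47% of all genes. Members lower without overlap then numbered 5 to 15, where leaving a library out by itself makes overlap less likely. They numbered 2 with library totals. The share of all genes without overlap is not given for these settings, so these counts cannot be set against it. The log2 fold change of Vcam1 ran from -0.054 (without control-tagged replicate 3) to 0.23 (without control-tagged replicate 2). With the replicate block, 0 members were called and the median was -0.26. An unadjusted p under 0.05 and lower means were then found for 14, beside 5.76% of all genes. Libraries of the same number share only the number: the correlations of their deviations were -0.03, 0.03, 0.34 and -0.06, and 2 of 8 libraries correlated best with their own number. Depth limits Sele, Selp, Esm1, Procr and Ocln most.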
